A study of Mus musculus with 56 samples.

Results

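The 38 genes described here encode ATF4, its partner factors and regulators, enzymes and transporters that supply amino acids, transfer RNA (tRNA) synthetases, the chaperone BiP and stress-induced secreted proteins. They were chosen by name, out of 23259 genes found in any gene table of the series. The brain table held 36 of them (not Fgf21 or Gdf15), and 36 were in the testis table (not Trib3 or Gdf15). The first N2a table also held 36 (not Vldlr or Fgf21), muscle 35 (not Slc7a11, Fgf21 or Gdf15) and the co-transfection table all 38. The liver table held 32, without Phgdh, Aldh1l2, Slc7a11, Nupr1, Fgf21 and Stc2. All samples were bulk mouse RNA. Cortex, hippocampus, cerebellum, liver, muscle and testis each came from 3 wild-type (WT) and 3 Fmr1 knockout (KO) samples, with strain and age not stated in the sources. N2a cells, a mouse neuroblastoma line, received siFmr1 (3 samples), an siRNA against Fmr1, or siNT (2 samples), a control siRNA with no target. In a second N2a experiment an siRNA and a plasmid were given together, with 3 samples in each of 5 groups. In 3 groups the plasmid was the control pcDNA, and the siRNA was siNT, siFmr1 or siMbnl1. The other groups received siFmr1 and a plasmid for nuclear FLAG-MBNL1 (nMBNL1), or siMbnl1 and a plasmid for cytoplasmic FLAG-MBNL1 (cMBNL1). MBNL1 is an RNA-binding splicing regulator. The labels do not say whether replicates came from separate animals or cultures, so p-values measure only the spread between these samples.

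As background, ATF4 is the effector of the integrated stress response. Kinases that sense amino acid shortage, unfolded protein in the endoplasmic reticulum (ER), heme shortage or double-stranded RNA phosphorylate eIF2alpha, which slows translation in general while ATF4 protein accumulates. ATF4 pairs with C/EBP factors at composite DNA elements and raises transcription of genes for amino acid synthesis and import, tRNA charging, and feedback regulators such as TRIB3 and GADD34. FMRP, the product of Fmr1, binds messenger RNAs and represses translation of many of them.

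RefSeq promoter windows (GRCm38.p6, 250 bases before to 50 after each transcript start) were present for 32 of the 38 genes. The core of the C/EBP-ATF element was searched as TGATGNAA on both strands. It lay in a window of 10 of the 32 genes (31.2%), against 1219 of all 27025 genes with a window (4.51%), and in 3.97% of all windows. The 10 were Aars, Asns, Chac1, Fgf21, Gars, Nupr1, Pck2, Slc7a11, Trib3 and Vldlr. The ER stress element, searched on both strands, was found for Hspa5 alone among these genes, 65 bases before its start, where it overlapped no match of the first motif, and in 0.119% of all windows. Of the genes with a match, 6 are shown because their values carry results below. All 6 hold the same pattern, with either C or T at its N, and they moved in different directions. Capitals mark each match, written as read on the gene's strand, where TTGCATCA and TTACATCA are matches on the opposite strand. A match describes letters only.
Trib3 (chr2:152344028-152344057, minus strand, match 14 bases after the start): ttagctcaggtTTACATCAgccgggcgggg
Chac1 (chr2:119350999-119351106, plus strand, match 193 bases before the start): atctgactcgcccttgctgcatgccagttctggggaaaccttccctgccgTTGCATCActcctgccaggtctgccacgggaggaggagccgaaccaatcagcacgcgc
Nupr1 (chr7:126625523-126625630, minus strand, match 110 bases before the start): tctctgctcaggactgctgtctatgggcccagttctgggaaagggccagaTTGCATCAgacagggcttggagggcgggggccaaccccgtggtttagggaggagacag
Pck2 (chr14:55540113-55540220, plus strand, match 103 bases before the start): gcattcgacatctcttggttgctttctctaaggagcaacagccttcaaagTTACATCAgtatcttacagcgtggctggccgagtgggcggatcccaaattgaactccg
Slc7a11 (chr3:50443614-50443729, minus strand, matches 66 and 47 bases before the start): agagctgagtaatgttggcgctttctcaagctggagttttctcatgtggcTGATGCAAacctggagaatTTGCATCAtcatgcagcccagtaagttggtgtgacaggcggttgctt
Aars (chr8:111033680-111033787, plus strand, match 112 bases before the start, a second one 9 bases after it not shown): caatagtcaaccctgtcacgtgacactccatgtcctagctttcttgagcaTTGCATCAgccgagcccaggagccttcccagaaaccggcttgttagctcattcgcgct

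Libraries held 26264368 to 41384652 counts in brain and 13230785 to 16268865 in the other count tables. The co-transfection table held normalized counts that summed to 31955037 to 33273189 per library, so its depth is unknown. Labelled tissues matched their markers: summed markers of hepatocytes were 87432 to 116346 CPM (counts scaled to a common total) in liver, of skeletal muscle 110984 to 149990 in muscle and of germ cells 9143 to 10097 in testis. Neuron markers summed to 7507 to 8582 in cortex and 1549 to 2480 in the first N2a libraries. Fmr1 itself was 2819, 3604 and 2856 normalized counts after siNT with pcDNA and 587, 583 and 612 after siFmr1 with pcDNA. Mbnl1 was 4410, 5017 and 3759 after siNT and 1408, 1538 and 1509 after siMbnl1, each with pcDNA. With plasmid it was 11032, 12133 and 13253 (nMBNL1) and 19178, 23339 and 16769 (cMBNL1). In KO tissues Fmr1 fell in 5 of 6 (log2 fold changes -1.61 to -1.97), and in muscle it was 14.6 ± 2.81 CPM in WT and 9.53 ± 1.27 in KO (SD, n = 3; edgeR, adjusted p 0.0734). The 38 genes took 1.02% to 1.60% of the total in N2a libraries and 0.193% to 0.620% in tissue libraries.

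The co-transfection experiment asked first how N2a cells differ after loss of Fmr1. Against siNT with pcDNA, siFmr1 with pcDNA changed 18 of the 38 genes, 6 upward and 12 downward (limma on log2(normalized count + 1), Benjamini-Hochberg adjusted p under 0.05), where 37.0% of all 16242 genes tested were called. The downward calls were 12 of 38 against 17.5% of all genes, and the median log2 fold change of the 38 was -0.05 against 0.03 for all genes. The lower genes included importers, a mitochondrial folate enzyme and the ATF4 partners Cebpg and Ddit3, while Atf4 and Asns were not called. In the same libraries the summed markers of neuroblastoma rose from 12071 to 15383 in siNT to 20742 to 21369 in siFmr1, and 3 of 6 were called higher. Neuron markers were at 45035 to 48143 in siNT and 58056 to 59519 in siFmr1 (2 of 6 called higher), and further marker lists also differed without overlap. Their part in these results was not tested. With only these 2 groups in the fit, 12 of the 18 calls were made (22.5% of all genes), and those on Ddit3, Ass1, Wars, Eprs, Hspa5 and Vldlr were lost.

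Aldh1l2, a mitochondrial folate dehydrogenase, was at 6344, 7144 and 6111 normalized counts after siNT and at 3067, 3344 and 3035 after siFmr1. Every siFmr1 library was below every siNT library, and the log2 fold change was -1.05 ± 0.07 (SE; limma, adjusted p 6.06e-08). Slc7a11, the cystine importer, went from 3971, 4877 and 3913 to 2156, 2241 and 2279, also without overlap (-0.93 ± 0.09, limma, adjusted p 1.80e-06). Slc38a2, which imports small neutral amino acids, went from 15134, 15639 and 14988 to 11610, 10575 and 11037 (-0.46 ± 0.07, limma, adjusted p 0.000124). The partner chain of Slc7a11, Slc3a2, and the importers Slc7a5 and Slc7a1 were not called. Both Aldh1l2 and Slc7a11 kept their calls in all 13 alternative fits, with log2 fold changes of -1.10 to -0.98 and -0.98 to -0.82.

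Among transcription factors, Cebpg, which dimerises with ATF4, fell from 2269, 2307 and 2256 to 1788, 1810 and 1834 (-0.33 ± 0.06, limma, adjusted p 0.000385). Ddit3, which encodes the pro-apoptotic factor CHOP, was called lower (-0.46 ± 0.17, limma, adjusted p 0.0382), but its siNT libraries were at 7165, 3725 and 6364 and the siFmr1 libraries at 3808, 3981 and 4268. The siNT 2 library thus lay below all 3 siFmr1 libraries. The call on Ddit3 was lost without siNT 1, without siNT 3 or without any siFmr1 library, with a log2 fold change of -0.28 to -0.75 over the alternatives. Atf4 mRNA was 34928, 33448 and 39267 after siNT and 33766, 33323 and 33350 after siFmr1, overlapping groups that were not called (-0.10 ± 0.08, limma, adjusted p 0.363).

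Feedback regulators moved both ways. Ppp1r15a, which encodes the GADD34 subunit that directs dephosphorylation of eIF2alpha, fell from 4213, 3489 and 4279 to 3068, 3022 and 2886 (-0.41 ± 0.08, limma, adjusted p 0.00103). Chac1, a glutathione-degrading enzyme whose promoter match is printed above, fell from 3537, 3116 and 4010 to 2790, 2841 and 2614 (-0.36 ± 0.09, limma, adjusted p 0.00529). Ddit4, an inhibitor of mTORC1, rose from 4570, 5089 and 6089 to 7507, 7993 and 7306 (0.54 ± 0.11, limma, adjusted p 0.00106). Groups did not overlap for any of these 3 genes.

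Of the synthesis enzymes, Psph, the last enzyme of serine synthesis, fell from 5548, 3804 and 5177 to 3297, 3309 and 3698 (-0.48 ± 0.11, limma, adjusted p 0.00227). Mthfd2, another mitochondrial folate enzyme, rose from 11044, 9045 and 10667 to 12841, 13218 and 12864 (0.35 ± 0.07, limma, adjusted p 0.00149), the opposite direction to Aldh1l2. Pck2, the mitochondrial PEP carboxykinase with a promoter match, rose from 3040, 3359 and 3145 to 4077, 4191 and 4017 (0.37 ± 0.09, limma, adjusted p 0.00365). The earlier serine enzymes Phgdh and Psat1 were not called, at 11935 ± 362 and 15670 ± 344 against 12327 ± 220 and 15040 ± 934 in siNT (SD, n = 3).

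In tRNA handling, Xpot, the tRNA exporter, fell from 14302, 14932 and 13481 to 11386, 11241 and 10772 (-0.35 ± 0.06, limma, adjusted p 0.000232). The synthetases Wars and Eprs were called lower by smaller amounts (-0.19 ± 0.07 and -0.27 ± 0.10, limma, adjusted p 0.0429 and 0.0432). Eprs was at 24526, 33480 and 24566 in siNT, and without siNT 2 its log2 fold change was -0.12 and the call was lost. Its call also ended without any siFmr1 library, and the Wars call ended without siNT 2, siNT 3, siFmr1 1 or siFmr1 3, at -0.16 to -0.23 over the alternatives. Hspa5, the ER chaperone BiP, fell from 38402, 40920 and 39082 to 33325, 33642 and 32798 (-0.25 ± 0.07, limma, adjusted p 0.0140). The synthetases Aars, Sars, Gars, Nars and Mars were not called.

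3 genes called higher after siFmr1 were listed at low values or 0 in at least 1 siNT library. Fgf21, a secreted stress hormone, was listed at 0, 0.996 and 0 normalized counts after siNT and at 9.07, 8.80 and 7.85 after siFmr1, then at 11.6, 10.3 and 5.89 after siFmr1 with nMBNL1. It was 4.50, 0 and 10.1 after siMbnl1 and 2.96, 0 and 0.939 with cMBNL1, so only the siFmr1 groups lay wholly above siNT. Vldlr, a lipoprotein receptor, was 10.1, 18 and 4.19 after siNT, 32.9, 17.5 and 24.4 after siFmr1 and 35.5, 32.8 and 29.6 with nMBNL1. Its call (1.29 ± 0.41, limma, adjusted p 0.0214) was lost without siNT 3, siFmr1 1 or siFmr1 3, with 0.80 to 1.73 over the alternatives. Ass1, which joins citrulline and aspartate on the way to arginine, was listed at 0 in siNT 1 and at 195 and 280 in siNT 2 and siNT 3, against 847, 838 and 620 after siFmr1. Its fitted log2 fold change (4.32 ± 1.34, limma, adjusted p 0.0183) rested on that 0 and ranged from 1.70 to 5.76 over the alternatives, and its call was lost without siFmr1 1 or siFmr1 2.

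**Figure D1:**
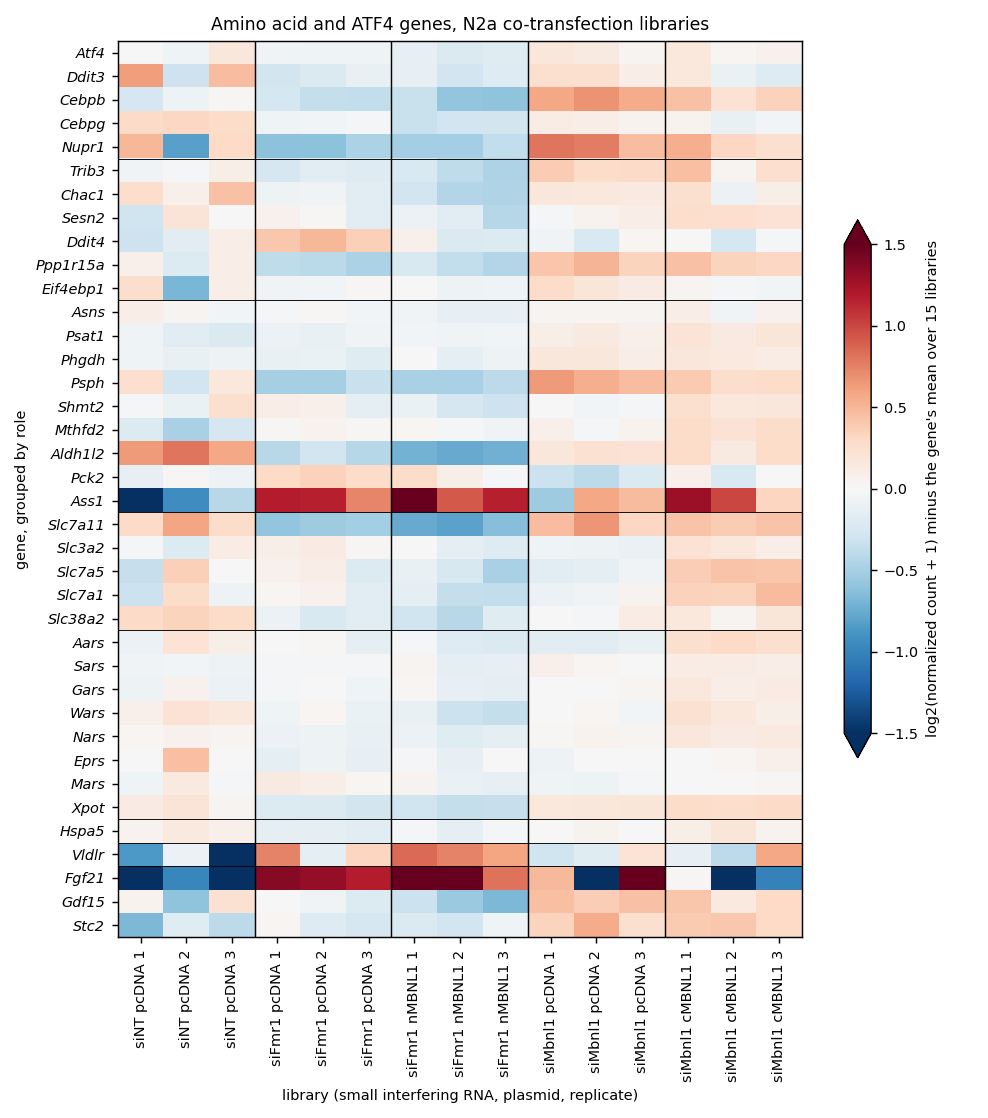
Co-transfection values of the 38 genes (vertical axis, grouped by role) in the 15 libraries (horizontal axis), as log2(normalized count + 1) minus the mean of the gene over all libraries, by colour. Aldh1l2 and Slc7a11 were low in the 6 siFmr1 libraries, Cebpb, Nupr1 and Stc2 were high in the siMbnl1 libraries, and siNT 2 stood apart from siNT 1 and siNT 3 for Ddit3, Nupr1 and Eif4ebp1.

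The siNT libraries varied more than the others. Their median SD over all genes was 0.236 on the log2 scale, against 0.0963 to 0.113 in the other 4 groups, and over the 38 genes it was 0.156 against 0.0555 to 0.0977. Eif4ebp1, a translation repressor, was at 18021, 9386 and 16180, and Nupr1 at 4779, 1918 and 4171, so siNT 2 was low for both. Over the libraries left out, 4770 to 6532 of all genes were called after siFmr1, against 6013 in the main fit. Without siNT 2, 19 members were called after siFmr1 instead of 18, and 16 of them were among the 18. The members lost were Wars and Eprs, and the members gained were Eif4ebp1, Nupr1 and Stc2.

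A second comparison asked what loss of Mbnl1 does. Against the same siNT libraries, siMbnl1 with pcDNA changed 15 of the 38 genes, 10 upward and 5 downward, where 32.8% of all genes were called by limma. The upward calls were 10 of 38 against 17.0% of all genes. Summed neuroblastoma markers were 15530 to 16796 after siMbnl1, above the 12071 to 15383 of siNT (2 called higher and 1 lower), and astrocyte markers 564 to 756 against 1083 to 1563 (1 higher and 2 lower). Their part in these results was not tested. Since this comparison shares its controls with the siFmr1 comparison, the values are set side by side and no overlap is drawn.

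Of the 10 upward calls after siMbnl1, 4 were factors or regulators, 4 synthesis enzymes and 2 secreted proteins. Cebpb, a C/EBP factor of acute responses, rose from 2476, 2798 and 2977 to 4422, 4708 and 4351 (0.71 ± 0.09, limma, adjusted p 1.94e-05). Ppp1r15a rose to 5340, 5683 and 5030 (0.43 ± 0.08, limma, adjusted p 0.000958), and Trib3, a pseudokinase that restrains ATF4, from 5178, 5243 and 5726 to 6969, 6485 and 6532 (0.31 ± 0.09, limma, adjusted p 0.0138). Nupr1, a small stress-induced chromatin protein, was at 5890, 5745 and 4668 (0.68 ± 0.22, limma, adjusted p 0.0277), overlapping the siNT range, and its call ended without siMbnl1 1 or siMbnl1 2, at 0.28 to 0.93 over the alternatives. The Trib3 call ended without siMbnl1 1 (0.28 to 0.35 over the alternatives). Cebpg was lower, at 2013, 1998 and 1927 (-0.20 ± 0.06, limma, adjusted p 0.0146), and its call ended without siMbnl1 3 (-0.21 to -0.18).

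All 3 serine synthesis enzymes were called higher after siMbnl1. With only the 2 groups compared in the fit, the call on Psph was kept and those on Psat1 and Phgdh were lost. Psph rose to 7249, 6778 and 6395 (0.51 ± 0.11, limma, adjusted p 0.00175), Psat1 from 16057, 14842 and 14220 to 17633, 18172 and 17527 (0.24 ± 0.06, limma, adjusted p 0.00731), and Phgdh from 12495, 12079 and 12408 to 14664, 14667 and 13988 (0.23 ± 0.06, limma, adjusted p 0.00868). Mthfd2 rose by 0.35 ± 0.07, to 13434, 12510 and 13219 (limma, adjusted p 0.00150). Aldh1l2 fell to 4589, 4781 and 4769 (-0.47 ± 0.07, limma, adjusted p 0.000109), a level between siNT and siFmr1. Secreted proteins rose as well: Stc2, a secreted glycoprotein, went from 388, 546 and 470 to 780, 913 and 732 (0.80 ± 0.12, limma, adjusted p 0.000144), and Gdf15, a secreted stress hormone, from 2385, 1510 and 2698 to 3149, 2957 and 3127 (0.53 ± 0.15, limma, adjusted p 0.0150). The Gdf15 change ranged from 0.28 to 0.70 over the alternatives, and its call was lost with only the 2 groups compared in the fit.

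The other downward calls after siMbnl1 were small. Slc38a2 was at 12415, 12222 and 13343 (-0.27 ± 0.07, limma, adjusted p 0.00878), and Pck2 at 2641, 2523 and 2846 (-0.25 ± 0.09, limma, adjusted p 0.0344). The Pck2 call ended without siNT 2, siNT 3, siMbnl1 1 or siMbnl1 2, at -0.21 to -0.30. Aars, the alanine synthetase with a promoter match, was at 16539, 16543 and 17128 against 17439, 21419 and 19758 in siNT (-0.22 ± 0.08, limma, adjusted p 0.0498), and this call held in 3 of 13 alternatives, being lost without siNT 2, siNT 3 or any siMbnl1 library. With only these 2 groups in the fit, 6 of the 15 calls were made (14.8% of all genes). Those on Cebpg, Nupr1, Psat1, Phgdh, Mthfd2, Pck2, Slc38a2, Aars and Gdf15 were lost. Slc7a11, at 4486, 5116 and 4036, was not called after siMbnl1, and neither was Atf4, at 39131, 38230 and 35832 (0.07 ± 0.08, limma, adjusted p 0.506).

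The direct comparison of siFmr1 with siMbnl1, both with pcDNA, does not use the siNT libraries. It called 16 of the 38 genes, 2 higher and 14 lower after siFmr1, where 35.3% of all genes were called and 17.0% were called lower. The median log2 fold change of the 38 was -0.13, against 0.01 over all genes. With only these 2 groups in the fit 24 members were called (47.2% of all genes). Neuron markers summed to 58056 to 59519 after siFmr1 and 44514 to 50299 after siMbnl1. Neuroblastoma markers summed to 20742 to 21369 and 15530 to 16796, with 4 of 6 called higher in each list. Further marker lists also differed without overlap, and their part in these results was not tested. Among the called genes Nupr1 differed most, at 2201, 2200 and 2437 after siFmr1 against 5890, 5745 and 4668 after siMbnl1 (-1.25 ± 0.22, limma, adjusted p 0.000412). Slc7a11 followed (-1.02 ± 0.09, limma, adjusted p 6.82e-07), then Psph, at 3297, 3309 and 3698 against 7249, 6778 and 6395 (-0.99 ± 0.11, limma, adjusted p 4.66e-06), and Cebpb, at 2463, 2303 and 2281 against 4422, 4708 and 4351 (-0.94 ± 0.09, limma, adjusted p 9.59e-07). None of these 4 genes overlapped between the groups.

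Also lower after siFmr1 than after siMbnl1 were Ppp1r15a (-0.84), Aldh1l2 (-0.58), Trib3 (-0.51), Gdf15 (-0.51), Stc2 (-0.51), Xpot (-0.40), Phgdh (-0.27), Chac1 (-0.26), Slc38a2 (-0.19) and Psat1 (-0.18), with limma adjusted p of at most 0.0468. Higher after siFmr1 were Pck2 (0.62 ± 0.09, limma, adjusted p 5.25e-05) and Ddit4 (0.50 ± 0.11, limma, adjusted p 0.00191). Trib3, Chac1, Nupr1 and Slc7a11 were thus lower and Pck2 higher, and all 5 hold the printed composite motif. The other genes with this motif, Aars, Asns, Fgf21, Gars and Vldlr, were not called in this comparison. The calls on Chac1, Psat1 and Slc38a2 ended without any 1 of the 6 libraries, at -0.28 to -0.22, -0.20 to -0.17 and -0.23 to -0.15. The Gdf15 call ended without siFmr1 3 or siMbnl1 1, at -0.55 to -0.45.

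**Figure D2:**
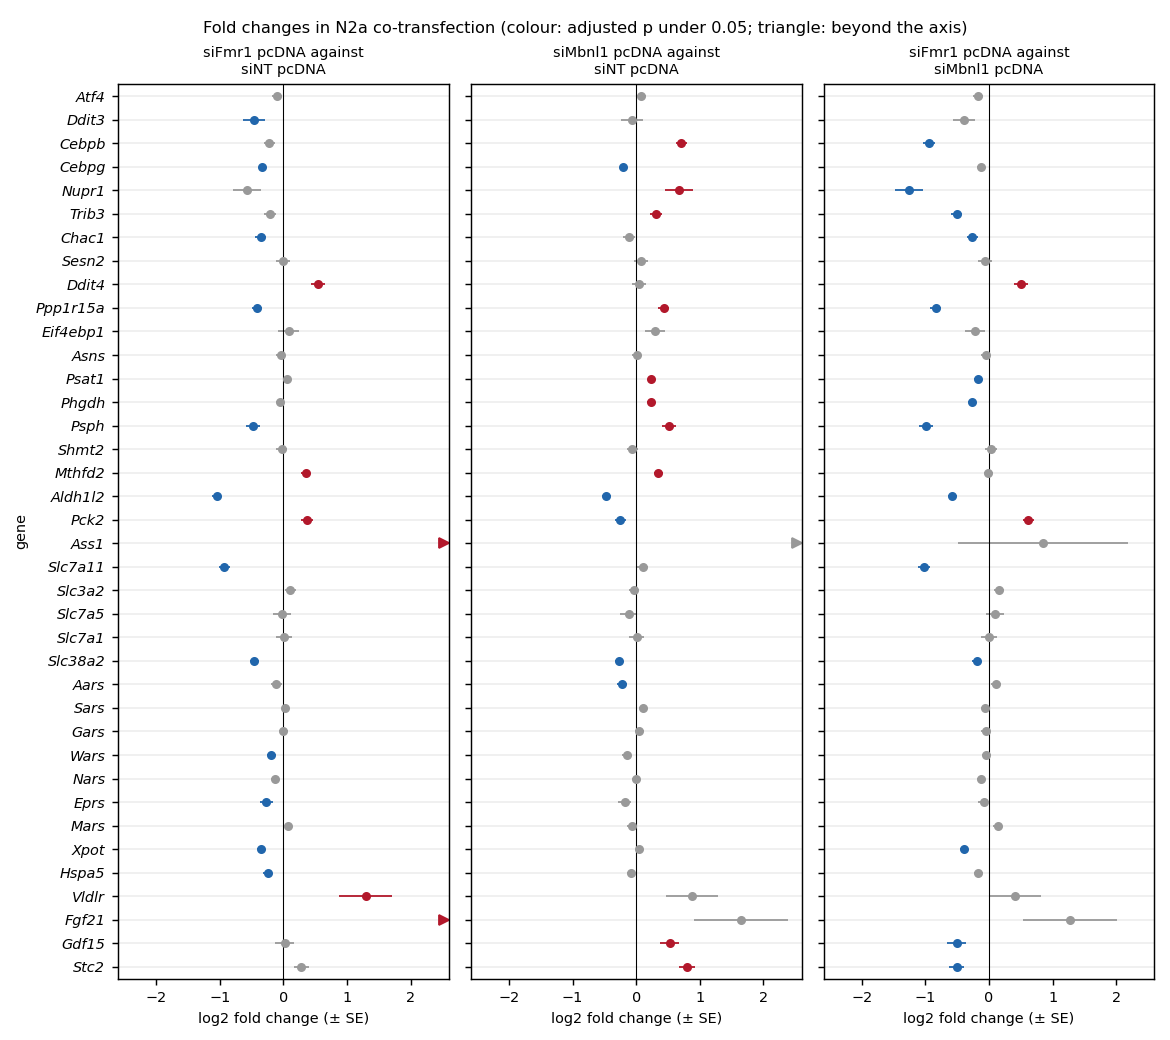
Log2 fold change of each of the 38 genes (vertical axis, by role) in 3 co-transfection comparisons (panels), with bars of 1 SE from limma, colour where the adjusted p was under 0.05 (red higher, blue lower) and grey elsewhere. Triangles mark values beyond the axis, and coloured genes number 18 for siFmr1 against siNT, 15 for siMbnl1 against siNT and 16 for siFmr1 against siMbnl1.

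With nMBNL1 in place of pcDNA in siFmr1 cells, 3 members were called lower and 0 higher, where 1.76% of all genes were called, 1.13% lower and 0.634% higher. Ddit4 went from 7507, 7993 and 7306 to 5968, 4889 and 4931 (-0.54 ± 0.11, limma, adjusted p 0.0251), back into the siNT range. Aldh1l2 went from 3067, 3344 and 3035 to 2511, 2414 and 2490 (-0.35 ± 0.07, limma, adjusted p 0.0224) and Cebpg from 1788, 1810 and 1834 to 1481, 1522 and 1546 (-0.26 ± 0.06, limma, adjusted p 0.0396), both farther from siNT. None of the 3 was called without siFmr1 pcDNA 1, siFmr1 pcDNA 2, nMBNL1 2 or nMBNL1 3. Without siFmr1 pcDNA 3 only Aldh1l2 was called, and without nMBNL1 1 Aldh1l2 and Ddit4 were. Log2 fold changes stayed within -0.63 to -0.49 for Ddit4, -0.37 to -0.30 for Aldh1l2 and -0.27 to -0.24 for Cebpg. With only these 2 groups in the fit, which leaves the wide siNT group out of the spread, 10 members were called, against 16.9% of all genes, all lower, namely these 3 with Chac1, Gdf15, Shmt2, Slc3a2, Slc7a1, Slc7a11 and Wars.

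With cMBNL1 in place of pcDNA in siMbnl1 cells, 1 member was called higher and 0 lower, where 2.24% of all genes were called, 1.43% higher and 0.807% lower. Aars rose from 16539, 16543 and 17128 to 21853, 22554 and 21911 (0.40 ± 0.08, limma, adjusted p 0.0225). The call was lost without siMbnl1 pcDNA 1, siMbnl1 pcDNA 2 or any cMBNL1 library, although the log2 fold change stayed at 0.39 to 0.42. With only these 2 groups in the fit 14 members were called, 9 higher and 5 lower, against 17.2% of all genes. Atf4 was at 38908, 35682 and 36490 and Asns at 23551, 21238 and 23064 with cMBNL1, neither called. None of the 5 groups combined siFmr1 with cMBNL1 or siMbnl1 with nMBNL1, so siRNA and plasmid cannot be told apart between these 2 comparisons.

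Against siNT with pcDNA, siFmr1 with nMBNL1 changed 21 members, 4 upward and 17 downward, where 41.1% of all genes were called and 19.9% were called lower. Aldh1l2 (-1.40 ± 0.07, limma, adjusted p 3.12e-09) and Slc7a11, at 1919, 1852 and 2090 (-1.12 ± 0.09, limma, adjusted p 2.20e-07), fell most. Chac1 (-0.66), Slc38a2 (-0.60), Cebpg (-0.59), Psph (-0.49), Ddit3 (-0.46), Xpot (-0.45), Wars (-0.41), Gdf15 (-0.41), Cebpb (-0.40), Trib3 (-0.36), Ppp1r15a (-0.33), Shmt2 (-0.26), Atf4 (-0.21), Aars (-0.21) and Nars (-0.18) were also called lower. Of the main fits only this one called Atf4 mRNA, at 32148, 30032 and 30705 (limma, adjusted p 0.0428). The Atf4 call ended without siNT 3, nMBNL1 2 or nMBNL1 3, at -0.26 to -0.14 over the alternatives. The calls on Ddit3, Aars, Gdf15, Shmt2 and Nars also ended without at least 1 library, for Ddit3 without siNT 1, siNT 3 or any nMBNL1 library, for Aars without siNT 2, siNT 3, nMBNL1 2 or nMBNL1 3, and for Nars without nMBNL1 2. For Gdf15 they were siNT 1, siNT 3, nMBNL1 2 or nMBNL1 3, and for Shmt2 siNT 3, nMBNL1 2 or nMBNL1 3. Log2 fold changes ranged over the alternatives from -0.75 to -0.28 for Ddit3, -0.29 to -0.15 for Aars, -0.66 to -0.24 for Gdf15, -0.33 to -0.17 for Shmt2 and -0.20 to -0.16 for Nars. Mthfd2 (0.30), Vldlr (1.70 ± 0.41, limma, adjusted p 0.00349), Ass1 and Fgf21 were called higher. With only these 2 groups in the fit 12 members were called (25.6% of all genes). The calls on Atf4, Ddit3, Ppp1r15a, Shmt2, Mthfd2, Ass1, Aars, Nars and Gdf15 were lost there.

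Against the same siNT libraries, siMbnl1 with cMBNL1 changed 12 members, 10 upward and 2 downward, where 33.7% of all genes were called and 17.7% were called higher. Stc2 was at 817, 821 and 764 (0.79 ± 0.12, limma, adjusted p 0.000137), Mthfd2 rose by 0.57 ± 0.07 (limma, adjusted p 2.25e-05) and Cebpb by 0.44 ± 0.09 (limma, adjusted p 0.000927). Ppp1r15a (0.37), Psat1 (0.32), Trib3 (0.25) and Phgdh (0.23) were higher again, and the importers Slc7a1 of cationic (0.42) and Slc7a5 of large neutral amino acids (0.40) were called higher here. Ass1, at 911, 750 and 469, was called higher too, with the caution given for its siNT libraries, and its call ended without cMBNL1 1 or cMBNL1 2 (1.55 to 5.61). Aldh1l2 (-0.44) and Cebpg (-0.32) were lower. The Slc7a5 call ended without siNT 1, siNT 3 or any cMBNL1 library (0.23 to 0.58), and the Trib3 call without siNT 1, siNT 2, cMBNL1 1 or cMBNL1 3 (0.15 to 0.35). Without siNT 2, 20 members were called instead of 12. Over the libraries left out, 4254 to 6464 of all genes were called, against 5478 in the main fit. With only these 2 groups in the fit 6 members were called (18.7% of all genes), and the calls on Trib3, Psat1, Phgdh, Ass1, Slc7a5 and Slc7a1 were lost.

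Over the 14 comparisons of expression within a tissue or cell line, Aldh1l2 was called 6 times, Cebpg 5 times and Slc38a2 and Chac1 4 times each, always lower, and Mthfd2 4 times, always higher. Several of these comparisons share libraries. Ppp1r15a was called 5 times, 2 higher and 3 lower. No comparison called Sesn2, Eif4ebp1, Asns, Slc3a2, Sars, Gars or Mars. Asns, which makes asparagine and is a textbook ATF4 target, stood at 23546, 22544 and 21356 after siNT, 21713, 22165 and 21452 after siFmr1, 22699, 22573 and 22547 after siMbnl1, and 21202, 20268 and 20222 with nMBNL1. Its log2 fold changes in the 7 co-transfection comparisons lay between -0.13 and 0.01.

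While its level was not called, splicing of Asns differed. The series holds 11 tables of skipped exons, which the authors made with rMATS, and a call needed a false discovery rate (FDR) under 0.05 and an inclusion difference of at least 10 percentage points. Member genes had 1140 of the 344365 events listed and 5 calls, none of them in the tissue tables, the first N2a table or the table that the labels tie to siNT and siFmr1 with pcDNA (the siFmr1 pcDNA table). Between 0.146% and 2.36% of all events per table were called. Exon 2 of Asns (GRCm38, chr6:7689252-7689523, minus strand, 272 bases) was included at 81.4%, 80.9% and 81.9% in the first set of the table tied to siFmr1 with nMBNL1 (the nMBNL1 table) and at 96.9%, 97.5% and 97.3% in the second set, in the authors' deposited table. The difference was -15.8 points, the deposited FDR is listed as 0, and a mean of 5991 and 6576 junction reads lay behind the sets.

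The deposited tables name no groups for their sets. The labels tie the last pair of co-transfection tables to siMbnl1 with pcDNA (the siMbnl1 pcDNA table) and to siMbnl1 with cMBNL1 (the cMBNL1 table). The second set of the nMBNL1 table had the same junction reads as the first set of the siFmr1 pcDNA table in 44006 of 44006 shared events, and the second sets of the other 3 were identical to each other in every event they share. In the authors' deposited cMBNL1 table, exon 2 of Asns was included at 89.5%, 88.5% and 89.6% in the first set and at 98.5%, 98.3% and 97.5% in the second, a difference of -8.90 points with an FDR listed as 0, just short of the 10-point limit. In the authors' deposited siFmr1 pcDNA and siMbnl1 pcDNA tables, the first sets were at 96.9% to 97.5% and 98.5% to 98.9%, differences of -0.900 and 0.6 points from the second sets (FDR 0.0455 and 0.147). The low values were therefore seen in the first sets of the tables tied to the MBNL1 plasmids. A second event over the same exon, with another flanking exon, was at 99.3% or more in every set where it was listed.

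The annotation (GENCODE M21) places this exon in all 5 coding Asns transcripts and shows none that skips it. It holds 23 noncoding bases and then the first 249 coding bases, which are 83 codons with none left over and start with the initiating ATG. These coding bases are shown because they are what the skipped transcripts lack, with the start codon in capitals.
Asns exon 2, coding part (chr6:7689252-7689500, minus strand): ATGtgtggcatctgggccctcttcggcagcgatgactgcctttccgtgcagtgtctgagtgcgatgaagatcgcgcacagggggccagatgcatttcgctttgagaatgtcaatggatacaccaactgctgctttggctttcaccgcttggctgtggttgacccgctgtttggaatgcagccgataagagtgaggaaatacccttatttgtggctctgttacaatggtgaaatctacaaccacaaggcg

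**Figure D3:**
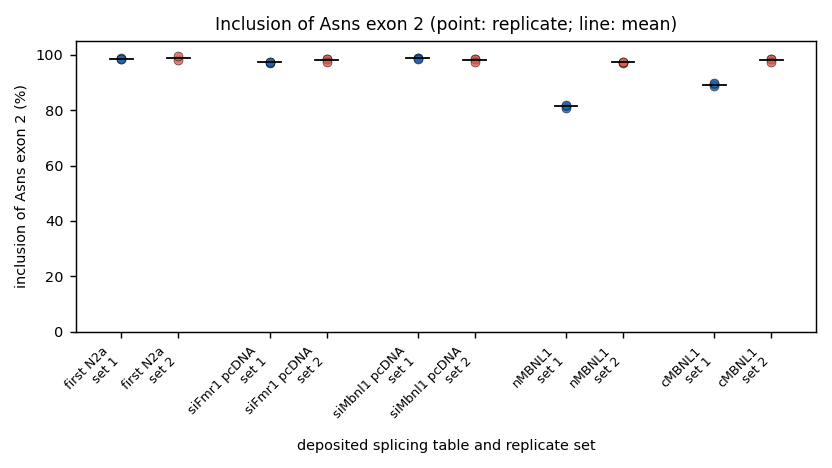
Inclusion of Asns exon 2 (vertical axis, percent) in each replicate of both sets of the deposited tables of the N2a experiments (horizontal axis). The first sets of the nMBNL1 and cMBNL1 tables lay at 80.9% to 81.9% and 88.5% to 89.6%, and the other N2a sets at 96.9% to 99.4%.

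The other called events had fewer reads. An exon of Aldh1l2 (GRCm38, chr10:83503942-83504047, minus strand) was included at 74.8%, 71.4% and 71.8% against 93.8%, 87.5% and 81.5% in the authors' deposited siMbnl1 pcDNA table (-14.9 points, FDR 0.000799), with a mean of 148 and 218 junction reads. Events of Phgdh in the authors' deposited siMbnl1 pcDNA and cMBNL1 tables and of Gars in the cMBNL1 table rested on means of 3.67 to 17.0 reads. With at least 20 reads in both sets only the Asns and Aldh1l2 events were called. With an FDR under 0.01 and at least 20 points both were lost, and only the events of Gars and Phgdh in the cMBNL1 table, on few reads, were called.

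Other genes of the stress pathway, listed by role, were counted in the same fits. Of 29 further ATF4 targets, 15 were called after siFmr1 against siNT, 4 higher and 11 lower, where 37.0% of all genes were called. The largest changes were in Cbs, a transsulfuration enzyme (1.44 ± 0.12, limma, adjusted p 4.05e-07), Ndrg1 (1.09 ± 0.29, limma, adjusted p 0.00699) and Gpt2, the mitochondrial alanine transaminase (-0.91 ± 0.08, limma, adjusted p 8.52e-07). After siMbnl1 11 of the 29 were called, near the 32.8% of all genes, 5 higher and 6 lower, led by Pycr1, a proline synthesis enzyme (-0.89 ± 0.16, limma, adjusted p 0.000650), and Lonp1, a mitochondrial protease (-0.87 ± 0.08, limma, adjusted p 1.43e-06). Of 9 eIF2alpha kinases and regulators, 4 were called after siFmr1, near the 37.0% of all genes, all lower, and these included Impact, Eif2ak4 (the amino acid sensor GCN2) and Eif2ak2 (-0.72, -0.58 and -0.56, limma, adjusted p of at most 0.000140).

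The ER chaperone and unfolded protein response list had 19 genes, of which 13 were called after siFmr1, 1 higher and 12 lower (37.0% of all genes), with a median log2 fold change of -0.30. Dnajb9, Dnajc3 and Hsp90b1 fell most (-0.61, -0.54 and -0.52, limma, adjusted p 3.34e-05 to 0.000176). After siMbnl1 7 of 19 were called, 1 higher and 6 lower (32.8% of all genes), and with nMBNL1 against siNT 16 were, 2 higher and 14 lower (41.1% of all genes). In KO tissues more of the 19 lay above 0 than below. There were 16, 18 and 18 above 0 in cortex, hippocampus and cerebellum (medians 0.11, 0.12 and 0.10, with 0 called). Liver had 16 and muscle 17 (median 0.22 in each, 0 and 3 called higher), and testis 10 (median 0.02, 1 called higher). In the first N2a experiment 12 were above 0 (median 0.06, 0 called). Of 15 other cytosolic tRNA synthetase genes, 3 were called after siFmr1, a smaller share than the 37.0% of all genes, all higher, led by Hars (0.41 ± 0.06, limma, adjusted p 3.99e-05). Of 17 mitochondrial ones, 6 were called, 5 higher and 1 lower, near the share of all genes. Members Xpot, Wars and Eprs were lower in the same comparison.

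In the first N2a experiment edgeR called none of the 36 members and no gene at all (0% of 12187), and DESeq2 also called none. In data simulated with the means and spread of this comparison, edgeR called 0 of 50 genes at a log2 change of -1 and 0 of 50 at 1. It called 4 of 50 at -2 and 6 of 50 at 2, so a missing call here says little. At an unadjusted p under 0.05 there was 1 member, against 0.386% of all genes. Libraries of 1 group stood far apart. In siNT 2, 22 of 36 members were at least 2-fold higher than in siNT 1, against 14.6% of all genes, and in siFmr1 3, 13 of 36 were at least 2-fold higher than in siFmr1 1, against 8.04%. Gdf15 was 10.4 and 142 CPM in the siNT libraries and 7.20, 44.4 and 101 in the siFmr1 libraries. Ddit3 was 27.7 and 218 against 29.7, 53.0 and 151, Trib3 53.4 and 346 against 72.8, 95.6 and 244, and Chac1 30.7 and 196 against 39.7, 75.5 and 170. High and low libraries were found in both groups for these 4 genes.

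Asns, at 672 and 1475 after siNT and 693, 699 and 1153 after siFmr1, and Atf4, at 644 and 1681 against 667, 906 and 1392, showed the same order of libraries. Psat1, Phgdh and Hspa5 were not called either, at 586 ± 419, 731 ± 434 and 805 ± 140 CPM (SD, n = 2) against 487 ± 216, 530 ± 196 and 848 ± 179 (n = 3). Slc38a2 ran the other way, at 652 and 183 against 534, 528 and 281. Fmr1, the siRNA target, was at 77.7 and 22.4 against 14.7, 14.7 and 2.12, so it was also low in the libraries where Gdf15 was high, and its part in the spread was not tested. Aldh1l2 was 148 and 125 after siNT and 90.4, 87.9 and 83.4 after siFmr1, groups that did not overlap, and the log2 fold change of -0.65 ± 0.26 failed Benjamini-Hochberg adjustment in edgeR (adjusted p 1, raw p 0.0423).

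**Figure D4:**
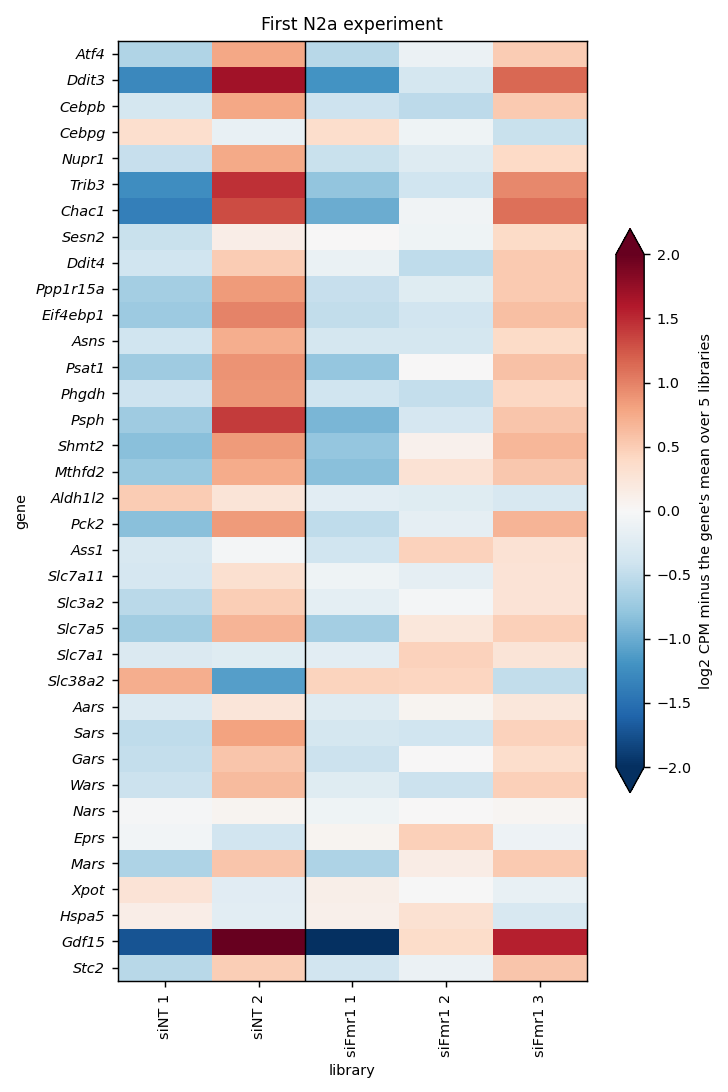
Values of the 36 members found in the first N2a experiment (vertical axis, by role) in its 5 libraries (horizontal axis), as log2 CPM minus the mean of the gene, by colour. Gdf15, Ddit3, Trib3 and Chac1 were high in siNT 2 and siFmr1 3 and low in siNT 1 and siFmr1 1.

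In brain, KO and WT were compared per region, and no member was called in cortex, hippocampus or cerebellum, where 0.0203%, 0.209% and 0.226% of all genes were called by edgeR. These were 0.0135% higher in hippocampus, and 0.0273% higher and 0.198% lower in cerebellum. At an unadjusted p under 0.05 there were 10, 11 and 4 members (21.0%, 12.5% and 8.72% of all genes), and DESeq2 called 3, 2 and 1. Hspa5 was 245, 262 and 294 CPM in WT and 360, 359 and 367 in KO cortex, groups that did not overlap (0.44 ± 0.07, edgeR, adjusted p 0.0668). It was 257, 278 and 292 against 316, 315 and 328 in cerebellum (0.21 ± 0.05, edgeR, adjusted p 0.180) and 225, 286 and 253 against 320, 281 and 345 in hippocampus, where groups overlapped (edgeR, adjusted p 0.279). Without cortex WT 3, Hspa5, Sesn2 and Slc7a5 were called in cortex (1102 genes in all), and the same 3 genes were called in cerebellum without cerebellum WT 3 (256 genes). The fit over all 18 brain samples called 5 members in cortex, namely Aars, Atf4, Hspa5, Sesn2 and Slc7a5 (1277 genes in all).

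In cortex 29 of 36 members lay below 0 on the log2 scale (median -0.13), in hippocampus 28 of 35 (median -0.07) and in cerebellum 25 of 36 (median -0.03). Medians over all genes were -0.00, 0.00 and 0.00. Atf4 was 127, 119 and 122 CPM in WT cortex and 101, 109 and 114 in KO (-0.18 ± 0.06, edgeR, adjusted p 0.136), and Asns 108, 95.7 and 98.4 against 87.9, 94.7 and 90.9 (-0.14 ± 0.06, edgeR, adjusted p 0.232). In hippocampus and cerebellum Atf4 differed by -0.07 and 0.05 and Asns by -0.07 and -0.11, none called. Phgdh, the first serine synthesis enzyme, was 84.2, 73.9 and 80.7 in WT and 67.9, 68.9 and 70.1 in KO hippocampus (-0.21 ± 0.06, edgeR, adjusted p 0.231). Ddit3, Trib3, Chac1 and Psat1 had log2 fold changes of -0.40 to 0.04 wherever tested in brain, and Trib3, under 1 CPM, was below the filter in hippocampus. No member's genotype effect was called different between regions by an edgeR interaction term, which called 0%, 0% and 0.00645% of all genes. With so few calls of any gene, this does not show that the effects were equal. At an unadjusted p under 0.05 there were 2, 4 and 1 members (10.1%, 15.2% and 5.31% of all genes). In KO hippocampus, oligodendrocyte markers summed to 4495 to 4640 CPM against 5455 to 5834 in WT (3 of 6 called lower), and astrocyte markers to 6953 to 7721 against 6413 to 6845 (0 called). In KO cortex, microglia or macrophage markers summed to 206 to 214 against 216 to 229 and blood markers to 136 to 141 against 162 to 195, and in KO cerebellum endothelial markers to 113 to 120 against 94.0 to 108, with 0 called in each. Their part in the brain values was not tested. In bulk tissue, fewer cells of a type and less RNA per cell cannot be told apart.

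Liver had no called member of 32 (0.411% of all genes called by edgeR), with 7 at an unadjusted p under 0.05 (11.4% of all genes). DESeq2 called 4 members, Asns, Atf4, Ppp1r15a and Trib3. Atf4 was 114, 195 and 144 CPM in WT and 72.9, 79.5 and 70.6 in KO, without overlap (-1.02 ± 0.19, edgeR, adjusted p 0.0702). Trib3 was 10.0, 18.5 and 6.57 against 2.41, 2.62 and 5.07 (-1.80 ± 0.42, edgeR, adjusted p 0.130), also without overlap. Psat1 and Asns lay in the other direction at low levels, Psat1 at 0.477, 0.426 and 0.302 against 0.757, 1.05 and 0.823 (1.09 ± 0.39, edgeR, adjusted p 0.333) and Asns at 2.32, 1.28 and 1.89 against 7.22, 5.75 and 2.26 (1.48 ± 0.43, edgeR, adjusted p 0.226). Ddit3, Chac1 and Hspa5 differed by -0.03, -0.20 and 0.12. Without liver WT 1, 4 members were called, all lower: Atf4, Gdf15, Ppp1r15a and Slc38a2. Over the libraries left out, 13 to 284 of all liver genes were called. Hepatocyte markers summed to 87432 to 96984 CPM in WT and 98505 to 116346 in KO liver, and stellate cell or fibroblast markers to 173 to 188 and 229 to 240, with 0 called. Their part in these values was not tested.

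Muscle called 2 of 35 members, where 4.04% of all genes were called by edgeR, 3.00% higher and 1.03% lower. Nupr1 rose from 6.82, 11.7 and 10.1 CPM in WT to 19.0, 16.5 and 17.2 in KO (0.88 ± 0.18, edgeR, adjusted p 0.0368). Chac1 fell from 91.6, 21.8 and 42.5 to 13.4, 16.0 and 14.5 (-1.83 ± 0.42, edgeR, adjusted p 0.0451). Groups did not overlap, but WT Chac1 varied widely, and both calls were lost without any KO library, without WT 3 and with the replicate number as a block, with log2 fold changes of 0.69 to 1.06 for Nupr1 and -2.19 to -1.14 for Chac1. Without WT 1, 4 members were called, adding Cebpb and Ppp1r15a. Over the libraries left out, 18 to 559 of all muscle genes were called. DESeq2 called 5 (Atf4, Chac1, Nupr1, Phgdh and Ppp1r15a).

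Uncalled members of muscle included Phgdh, at 2.59, 4.43 and 2.84 CPM in WT and 4.72, 5.53 and 9.05 in KO (0.97 ± 0.30, edgeR, adjusted p 0.0919), and Atf4, at 248, 272 and 296 against 216, 227 and 204 (-0.34 ± 0.10, edgeR, adjusted p 0.0924). Ddit3, Trib3, Asns, Psat1 and Hspa5 had overlapping groups and log2 fold changes of 0.04 to 0.56. From the pathway lists, 1 of 26 further ATF4 targets was called in muscle, Slc1a5, a neutral amino acid importer (1.01 ± 0.23, edgeR, adjusted p 0.0434). Of the 19 ER genes Pdia4, Pdia3 and Hsp90b1 rose (0.74, 0.58 and 0.42, edgeR, adjusted p 0.0156 to 0.0397). Of 9 eIF2alpha kinases and regulators Eif2ak2 rose (0.63 ± 0.14, edgeR, adjusted p 0.0441). Elsewhere in the tissues, the lists had calls on Ndrg1, lower in hippocampus (-0.36), and on Aimp1 and Dnajb9, higher in testis (0.23 and 0.26, edgeR, adjusted p 0.0171 to 0.0410 for the 3). Markers of other cells moved with genotype in muscle. Macrophage markers summed to 60.2 to 69.5 CPM in WT and 113 to 115 in KO (3 of 6 called higher), fibroblast markers to 1723 to 2725 and 3508 to 4624 (4 of the 5 listed called higher), and 1 of 6 skeletal muscle markers was called lower. Their part in the muscle results was not tested.

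Testis called 1 of 35 members tested, where 4.27% of all genes were called by edgeR and 2.28% were called lower. Slc7a5 fell from 173, 148 and 135 CPM in WT to 127, 124 and 119 in KO (-0.30 ± 0.07, edgeR, adjusted p 0.00853). The groups did not overlap, and the call was lost without WT 1, KO 2 or KO 3, at -0.38 to -0.19 over the alternatives. Without KO 1 there were 4 calls (Atf4, Cebpg, Slc3a2 and Slc7a5), and without WT 3 also 4 (Ass1, Phgdh, Slc3a2 and Slc7a5). Over the libraries left out, 173 to 1256 of all testis genes were called. DESeq2 called Slc3a2, the partner of Slc7a5 in the transporter, besides Slc7a5. Atf4 (-0.24, edgeR, adjusted p 0.139), Phgdh (-0.31, edgeR, adjusted p 0.195), Ddit3, Asns, Psat1 and Hspa5 (-0.04 to 0.09) were not called, and Chac1 was below the filter. Leydig cell markers summed to 1078 to 1419 CPM in WT and 1003 to 1048 in KO testis, and 4 of 5 were called lower. Sertoli cell markers summed to 1036 to 1283 in WT and 927 to 1004 in KO, with 0 called. Their part in the Slc7a5 result was not tested.

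**Figure D5:**
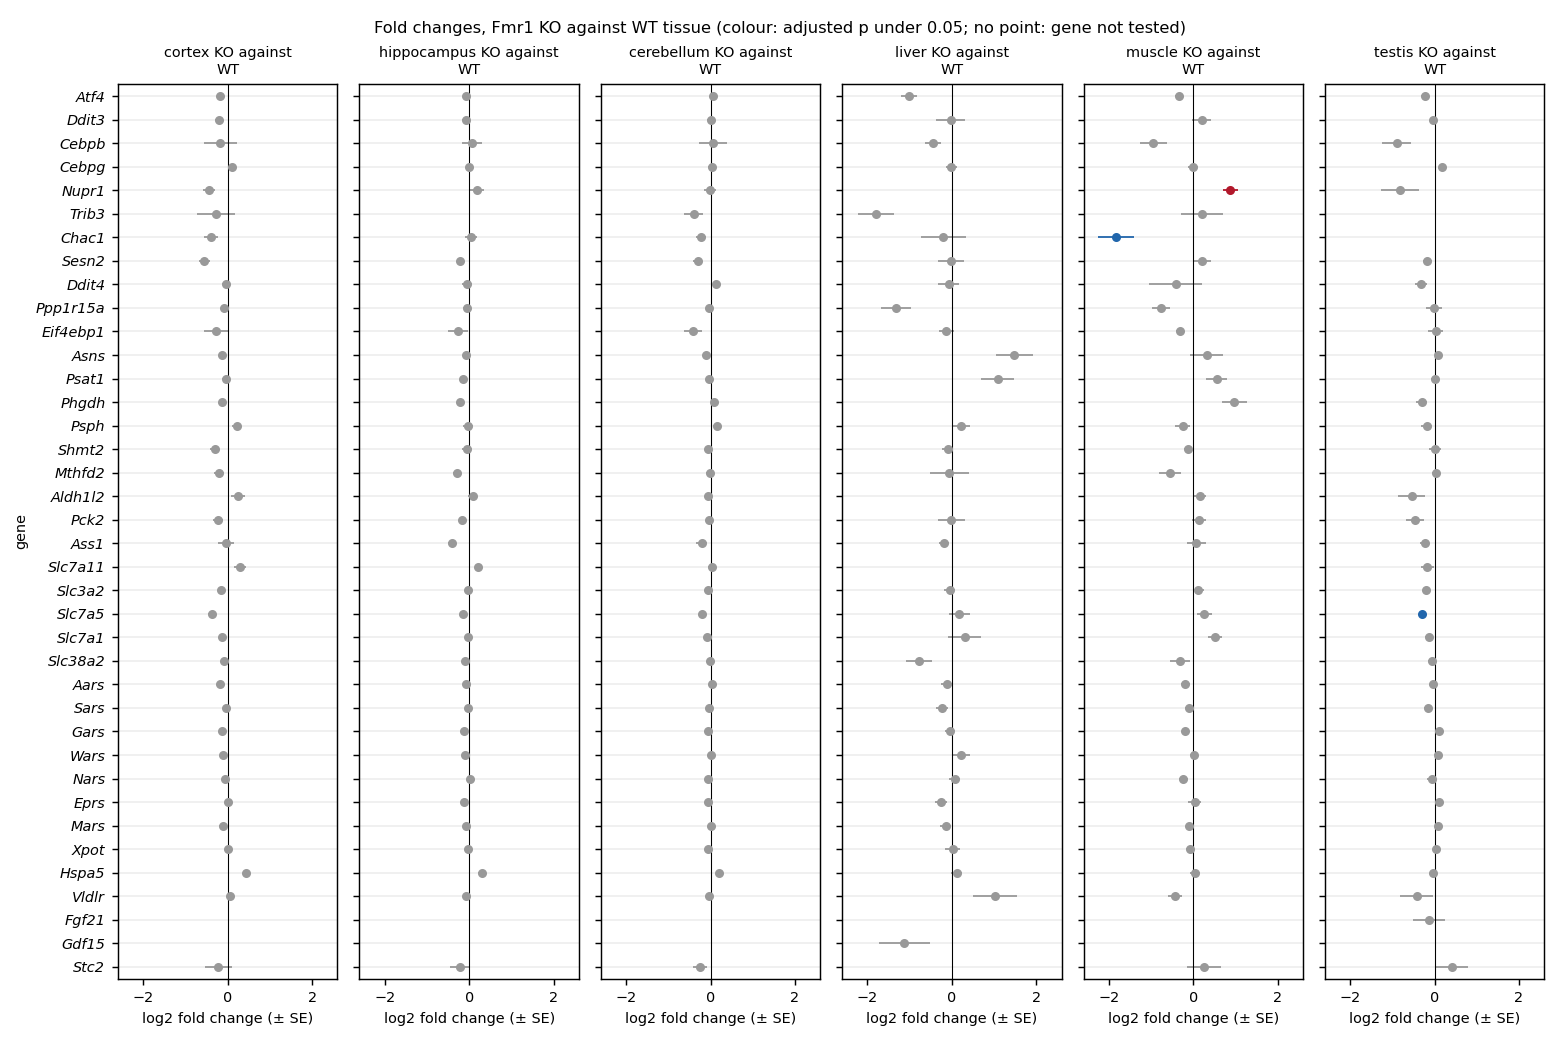
Log2 fold change, KO against WT, of the members found in each tissue (vertical axis, by role), with bars of 1 SE from edgeR, colour where the adjusted p was under 0.05 and no point for genes not tested. Coloured points are Nupr1 (higher) and Chac1 (lower) in muscle and Slc7a5 (lower) in testis, and all points of the 3 brain regions and liver are grey.

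Levels of the members differed widely between WT tissues. These are means of the authors' TPM, a scale per transcript length, and tables were made separately, so the order is a description without a test. Asns stood at 119 to 155 TPM in the brain regions and 147 in testis, but at 1.58 in liver and 1.35 in muscle. Psat1 (124 to 145 TPM in brain, 18 in testis, 2.27 in muscle, 0.307 in liver) and Phgdh (82.8 to 125 in brain, 18.1 in testis, 2.86 in muscle) were also highest in brain. Ass1, a urea cycle enzyme in liver, was at 3441 TPM there and at 2.91 to 49.2 elsewhere. Cebpb was at 269 TPM in liver and 167 in muscle but under 5 in the other tissues. Slc7a5 was at 77.0 TPM in testis, 47.3 to 68.8 in brain and under 2 in liver and muscle, and Chac1 at 54.7 in muscle against 0.777 to 11.6 elsewhere. Atf4 ranged only from 161 to 267 TPM outside testis, where it was 36.7.

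The authors' deposited tables of log2 fold changes and adjusted p-values called more members in tissues than edgeR did. In the authors' deposited table for brain, 7 members were under an adjusted p of 0.05 in cortex (Aars, Atf4, Gars, Hspa5, Sesn2, Shmt2 and Slc7a5), 2 in hippocampus (Hspa5 and Phgdh) and 0 in cerebellum. The authors' deposited tables called 3 members in liver (Atf4, Ppp1r15a and Trib3), 5 in muscle (Atf4, Chac1, Nupr1, Phgdh and Ppp1r15a), 2 in testis (Slc3a2 and Slc7a5) and 0 in the first N2a experiment. Ddit3 and Mars overlap at their ends on opposite strands, and how the counting treated strand is not given in the sources used here.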

How the data were processed

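Gene tables of the tissues and the first N2a experiment hold whole read counts, TPM, log2 fold changes and p-values, as deposited by the authors. For the co-transfection experiment the authors deposited a normalized signal per gene, named normalized counts here. Splicing tables hold junction counts, inclusion levels as a fraction, lengths and other values, per the file headers. The submitters' processing notes name Trimmomatic 0.39, FastQC 0.11.8, CASAVA, STAR 2.6.1, Bowtie2 2.3.5, RSEM 1.3.1, DESeq2 1.16.1 and the build GRCm38 (mm10), without their roles. Counts were tested per comparison with edgeR 4.0.16 (quasi-likelihood, filterByExpr, TMM) in R 4.3.3. Normalized counts were tested with limma 3.58.1 (trend), after adding 1 and taking log2, keeping genes whose mean reached 1, all 5 groups in 1 fit. A call needed a Benjamini-Hochberg adjusted p under 0.05 over all genes. CPM used TMM-scaled totals. The scripts were tested on simulated data. Brain regions were compared by interaction terms over 18 samples. Alternatives used DESeq2 1.42.0, other filters, pseudocounts and fits, and each library left out. The muscle table has 2 further columns matched to no sample, not used, and 4 rows with repeated names were left out. Every called member was named. The plan named uncalled members for Atf4, Ddit3, Asns, Trib3, Chac1, Psat1, Phgdh and Hspa5 or where groups did not overlap at an absolute log2 fold change of 1 or more. Some other uncalled members were given outside this rule, among them Aldh1l2, Gdf15 and Slc38a2 in the first N2a experiment. Members and lists were chosen with earlier results of these data known. Figures used matplotlib 3.10.9.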

Additional observations from a re-analysis of the deposited data

Results flagged for a closer look

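The search covered only members called in a tissue and Atf4, Ddit3, Asns, Trib3, Chac1, Psat1, Phgdh and Hspa5. For 4 of these every KO sample lay on 1 side of every WT sample in some tissues and on the other side in others. The share of all genes with such a pattern was not counted. Differences between tables were not tested, and those between brain regions were tested by interaction terms. Nupr1 had log2 fold changes (KO against WT) of -0.45 in cortex, -0.82 in testis and 0.88 in muscle. It was under 1 CPM in every testis library, and in cortex and testis it was not called. Phgdh was at -0.14 in cortex, -0.21 in hippocampus, 0.08 in cerebellum and 0.97 in muscle, called in none of them. The interaction of Phgdh between hippocampus and cerebellum had an unadjusted p of 0.00183 and an adjusted p of 0.699 in edgeR. Psat1 was at -0.15 in hippocampus and 1.09 in liver, where it stood near 1 CPM or below. Slc7a5 was at -0.37 in cortex, -0.14 in hippocampus and -0.30 in testis, against 0.26 in muscle, and was called in testis alone.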

How the results depend on the processing

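Refits covered 179 pairs of a called or always named member and a comparison. None changed sign where the main fit or the refit made a call, and sign changes without a call were not counted. Over 2124 refitted values of called or named members, 1942 kept their side of the threshold, 159 lost a call and 23 gained one. DESeq2 called 3 members in cortex, 2 in hippocampus, 1 in cerebellum, 4 in liver, 5 in muscle and 2 in testis (924, 260, 94, 274, 1095 and 479 genes in all, against 3, 31, 33, 49, 512 and 661 by edgeR), and the fit of all 18 brain samples called 5 in cortex. With only the 2 groups compared in the limma fit, calls numbered 12 after siFmr1 (22.5% of all genes), 24 for siFmr1 against siMbnl1 (47.2%) and 6 after siMbnl1 (14.8%). They numbered 10 for nMBNL1 in siFmr1 cells (16.9%), 14 for cMBNL1 in siMbnl1 cells (17.2%), and 12 and 6 for nMBNL1 and cMBNL1 against siNT (25.6% and 18.7%). The cause was not tested. With 1 library left out, calls ranged from 0 to 3 in cortex and cerebellum, 0 to 4 in liver, muscle and testis, 13 to 19 after siFmr1, 11 to 18 after siMbnl1, 0 to 2 for nMBNL1 in siFmr1 cells, 0 to 1 for cMBNL1 in siMbnl1 cells, 12 to 14 for siFmr1 against siMbnl1, and 15 to 23 and 9 to 20 for nMBNL1 and cMBNL1 against siNT. They stayed at 0 in hippocampus, the first N2a experiment and the interactions. All genes called then numbered 1 to 1102 in cortex, 6 to 256 in cerebellum, 13 to 284 in liver, 18 to 559 in muscle and 173 to 1256 in testis. They numbered 4770 to 6532 after siFmr1, 4072 to 6074 after siMbnl1, 28 to 187 for nMBNL1 in siFmr1 cells and 37 to 182 for cMBNL1 in siMbnl1 cells. For siFmr1 against siMbnl1 they were 4364 to 5168, and for nMBNL1 and cMBNL1 against siNT 5488 to 7221 and 4254 to 6464. A stricter FDR of 0.01 with a difference of 20 points left 2 of 5 skipped exon calls (Gars and Phgdh, losing Asns and Aldh1l2), and a minimum of 20 reads left 2 others (Asns and Aldh1l2). With the replicate number as a block, muscle had 0 calls (31 genes in all) and the 7 co-transfection comparisons had 19, 14, 2, 1, 16, 20 and 14. Same-numbered samples did not deviate together in every pair of any comparison (correlations from -0.69 to 0.74), so the numbers were not used to pair KO with WT. Between brain regions of 1 genotype, same-numbered samples correlated at -0.23 to 0.34, and the labels do not say whether they share an animal. A block of number within genotype across regions, chosen after seeing the data, left 0 members called in each interaction (0, 4 and 1 genes in all). TMM rescaling, chosen after seeing the data, gave 17, 14, 3, 1, 16, 21 and 14. The planned edgeR fit on whole reads of the co-transfection table was not run, because its values are not whole multiples of a step. Depth is unknown there, and low genes such as Fgf21 are the least precise.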
